A study of Danio rerio with 4 samples.

Results

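The wild-type baseline of this study consisted of 2 RNA sequencing libraries from progenitor cells of the zebrafish kidney marrow, among 4 libraries in all. Both were selected by their label as wild type for tet2, and every gene in the table is described here without reference to the mutant fish. The labels give the tissue as kidney and the cells as marrow cells and HSPCs (hematopoietic stem and progenitor cells), with no treatment and no further allele or transgene listed. Titles put the fish at 4 months and descriptions at 15, a conflict that the labels leave unsettled. The study names both ages when it introduces its RNA sequencing and reports its expression results at 4 months. The cells were sorted by high forward and side light scatter and not by a marker or a transgene, so the gate sets a range of cell size and granularity. The study speaks of biological replicate pools for its methylation data, and the labels do not say how many fish stand behind each RNA library or whether the 2 share any, so the spread between them may in part be technical.

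In adult zebrafish the kidney marrow is the site of blood formation, as the bone marrow is in mammals. Stem cells there give rise to progenitors that divide and commit to red cells, granulocytes, macrophages, lymphocytes or thrombocytes, the nucleated counterparts of platelets. Each commitment is marked by a small set of transcription factors and, later, by the abundant products of the mature cell. Fish carry many genes as pairs of paralogs left by a duplication of the whole genome in their ancestry, and a pair may be used unequally in a given tissue.

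Replicates 1 and 2 held 9200225 and 8838603 counted reads, and 18739 and 18359 genes had at least 1 read. Of 32434 genes in the table, 20143 had a read in either library and 16955 had reads in both. Levels are given as CPM, the read count of a gene put on a common library size after the libraries were scaled to each other with edgeR (TMM), and 12868 genes reached a mean of 1 CPM, which is called detected here. Their median was 13.7 CPM, and 7421 genes had a mean of at least 10 CPM. A count of 0 allows up to 0.294 CPM in replicate 1 and 0.377 CPM in replicate 2, limits that cover counting error only. Reads of a long transcript outnumber those of a short one at the same number of molecules, and no transcript lengths were used here, so an order of genes in CPM is an order of reads and not of molecules.

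The libraries did not stand equal in composition. The 10 genes with the most reads took 16.6% of the reads in replicate 1 and 19.9% in replicate 2, and 138 and 89 genes held 50% of the reads. Replicate 2 carried more globin and ribosomal protein reads, as detailed below, and the part of this in other differences between the libraries was not tested. Scaling to the library totals alone shifts the median log2 ratio of all detected genes by -0.29, and directions between the libraries are therefore given relative to the median of all genes.

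Globins, ribosomal proteins and mitochondrial transcripts led both libraries. Of the 25 genes with the highest mean CPM, 10 were ribosomal proteins, 4 were globins, 3 were mitochondrially encoded, 3 were translation factors and 2 were chaperones of the Hsp90 and Hsp70 families. The other three were actb2, a cytoplasmic actin, fth1a, the heavy chain of the iron store ferritin, and gnb2l1, a scaffold protein of the small ribosomal subunit. All 25 had a higher CPM in replicate 2, against 21 of 25 when the libraries were scaled by their totals alone, and the margin was small for actb2 and wide for the globins.

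The gene with the most reads was hbaa1 (ENSDARG00000079078), an adult alpha globin, with 342116 reads in replicate 1 and 442923 in replicate 2. These correspond to 3.72% and 5.01% of all reads. The adult beta globin ba1 (ENSDARG00000089087) followed with 2.13% and 3.02% of the reads. The second copies of each chain, listed as zgc:92880 (beta) and si:ch211-5k11.6 (alpha), took 1.1% and 0.739% in replicate 1 and 1.62% and 1.09% in replicate 2. Globin copies are similar in sequence, and no source used here says how reads that fit more than one copy were counted, so the split between copies is uncertain.

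Outside the globins, eef1a1l1, the factor that brings aminoacyl-tRNA to the ribosome, stood at 18877 and 26999 CPM. Cytoplasmic actin actb2 stood at 20331 and 22296 CPM. The 3 mitochondrial transcripts of the leading set, mt-co1, mt-co3 and mt-co2, encode the catalytic subunits of cytochrome c oxidase. mt-co1 alone took 2.06% and 1.92% of the reads. The ribosomal proteins of the leading set ran from rpl3, at 7337 and 11045 CPM, to rpl6, at 3691 and 5965 CPM.

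**Figure D1:**
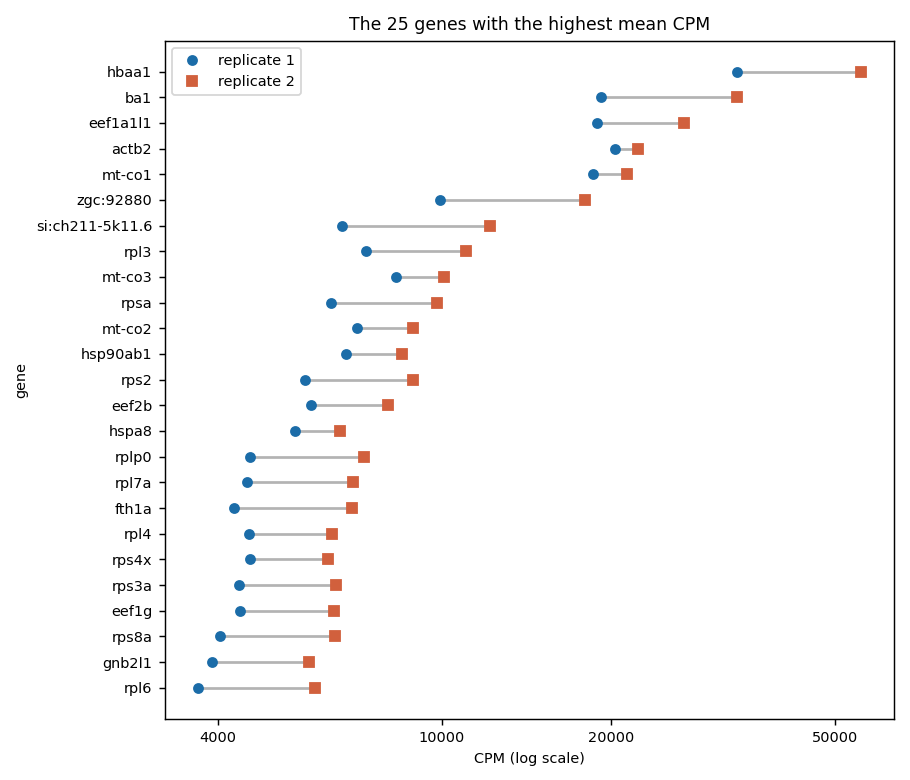
CPM (x axis, log scale) in replicate 1 (circles) and replicate 2 (squares) of the 25 genes with the highest mean CPM (y axis), with a line joining the 2 libraries of each gene. Every gene lies higher in replicate 2, with log2 ratios from 0.13 for actb2 to 0.87 for si:ch211-5k11.6, and with libraries scaled by their totals 21 of 25 do.

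By class, genes with ribosomal protein symbols took 20.9% of the reads in replicate 1 and 25.8% in replicate 2, over 88 detected genes. This class was formed by symbol and includes RPS6KA6, rps6ka1, rps6ka4, RPS6KA5 and RPS19BP1, which do not encode ribosomal proteins. The highest of these, RPS6KA6, had a mean of 63.4 CPM, and the values below were not computed without them. Relative to all genes the median log2 ratio of the class, replicate 2 over replicate 1, was 0.61. In the class 85 of 88 were higher in replicate 2, against 83 of 88 when libraries were scaled by their totals alone. Globins took 7.77% and 10.8%. Translation initiation and elongation factors took 5.36% and 5.98%, and the 13 mitochondrially encoded genes took 5.54% and 5.14%. The exact (Clopper-Pearson) 95% interval of each of these shares was at most 0.0577 percentage points wide, so the gaps between the libraries exceed counting error, which is the only error these intervals cover.

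The remaining classes were small. The 8 genes of the CCT chaperonin, the ring that folds actin and tubulin, took 0.459% and 0.511% of the reads. Proteasome genes took 0.378% and 0.346%, and tubulins took 0.386% and 0.395%. Histones took 0.60% and 0.736%, although most histone messages of dividing cells end without a poly(A) tail and are poorly kept by poly(A) selection. The histone share came largely from HIST1H1T, a linker histone entry, at 3192 and 5640 CPM.

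Among genes outside these classes, those that followed in order of reads belonged to red cells, to the cytoskeleton and to chromatin. They are named here after their values were seen. slc4a1a, the chloride and bicarbonate exchanger of the red cell membrane, had 3372 and 3346 CPM. cahz, a red cell carbonic anhydrase, had 2025 and 2393 CPM, and prdx2, a peroxidase abundant in red cells, had 1579 and 2588 CPM. The nucleosome-binding protein gene hmgn2 had 2463 and 2271 CPM, and hmgb2a, a chromatin protein of dividing cells, had 1552 and 1815 CPM. The neutrophil lysozyme lyz, with 2424 and 1557 CPM, was the first myeloid gene in that order.

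For the label HSPC, levels were read for 46 entries that matched a list of stem and progenitor genes. Of these, 33 were detected, 23 reached 10 CPM and 6 reached 100 CPM. Their median was 23.0 CPM, against 13.7 CPM for all detected genes. This does not test the label, since most other blood lists also had medians above that of all detected genes. These were 16.8 CPM for B cell, 22.5 for thrombocyte, 43.6 for macrophage and 94.1 for neutrophil genes. The T and NK cell list, at 4.08 CPM, and the eosinophil and mast list, at 10.9, lay below it. The most abundant stem and progenitor entry by far was cmyb (ENSDARG00000053666), the transcription factor Myb that blood stem and progenitor cells need, with 15932 and 12062 reads. At 1559 and 1516 CPM it ranked 112 among all genes, and its log2 ratio between the libraries was -0.04, with a counting interval of -0.07 to -0.01.

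Behind cmyb came cdk6, a G1 kinase, with 398 and 302 CPM. The second copy of HMGA2, a chromatin protein, had 186 and 180 CPM. tal1, a master regulator of blood formation, had 174 and 205 CPM. Its partner lmo2 had 79.6 and 85.8 CPM. fli1b, an ETS factor of blood and vessels, had 82.5 and 69.6 CPM, and ikzf1, a zinc finger factor of lymphoid and other progenitors, had 77.4 and 69.9 CPM. Leading members were named by their level, so their place above the median of all detected genes was set by that choice.

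Several markers nearer to the stem cell were much lower, though not all. gata2b, which marks emerging stem cells in fish, had 59 and 49 reads, or 5.77 and 6.16 CPM. runx1, required for the first blood stem cells, had 16 and 8 reads, and a second entry of the same name had 5 and 5. meis1 had 6.65 and 6.91 CPM, and the receptor flt3 had 7.83 and 5.15 CPM. The thrombopoietin receptor mpl, which stem cells share with thrombocytes, had 10.2 and 8.17 CPM. mecom had 3 and 2 reads, kitb had 2 and 1, and hoxa9a, hoxa9b and one of the entries named sox4a had 0 reads in both libraries. Other entries of these genes were higher, with 17.8 and 16.3 CPM for kita and 38.4 and 35.7 CPM for the other sox4a. The list member gfi1b had 26.9 and 25.9 CPM. The low values were those of bulk RNA, in which fewer cells of a type and less RNA per cell cannot be told apart. Whether reads of these genes went uncounted cannot be told from the counts either.

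The red cell programme was the largest lineage programme in reads. The erythroid list took 9.25% and 12.1% of the reads, and without the globins 1.55% and 1.39%. Of 53 entries, 47 were detected and 44 reached 10 CPM. Without the globins the median of the 42 detected members was 138 CPM. The enzymes of haem synthesis, the regulators and the membrane proteins were all represented.

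Haem synthesis begins in red cells with alas2, which had 1439 and 1737 CPM. hmbsb, which joins 4 of the pathway's rings in a chain, had 332 and 468 CPM, and its paralog hmbsa had 219 and 310 CPM. urod, cpox and alad, further enzymes of the pathway, had 222, 148 and 139 CPM in replicate 1 and 288, 187 and 172 CPM in replicate 2. The last enzyme, fech, which inserts the iron, was lower, with 58.6 and 83.1 CPM. Each of these 7 genes was higher in replicate 2 in CPM, and 6 of 7 were under scaling by totals.

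Among the regulators, gata1a, the factor that drives red cell genes, had 1175 and 1168 reads, or 115 and 147 CPM. klfd, the table's name for klf1, which switches on the adult beta globin in mammals, had 78.9 and 72.1 CPM. nfe2, shared with thrombocytes, had 162 and 174 CPM. The erythropoietin receptor was counted under an entry labelled EPOR (1 of 2), with 400 and 261 reads, whereas the entry labelled epor had 0 and 1. Transferrin receptor tfr1a, which brings in iron, had 138 and 140 CPM.

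The membrane and its skeleton differed less between the libraries than the globins. slc4a1a differed by a log2 ratio of -0.01, with a counting interval of -0.03 to 0.01. The ammonium channel rhag had 737 and 658 CPM, the band 4.1 gene epb41b had 685 and 518 CPM, and beta spectrin sptb had 474 and 436 CPM. So the globins were higher in replicate 2 in all 7 detected entries, with a median log2 ratio 0.75 above that of all genes, while these 4 membrane genes were not. Under scaling by totals alone 6 of 7 globins were higher in replicate 2.

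Most embryonic globin entries were nearly absent by reads, though not hbbe2 or hbz. hbae3, hbbe3 and one of the entries named hbae1 had 0 reads in both libraries, and the 2 entries of hbbe1.1 had 3 and 1 reads in replicate 1 and 7 and 4 in replicate 2. The entry hbbe2 had 5406 and 6203 reads, and whether some of these came from adult copies cannot be told from the counts. HBM, a minor alpha-type globin, had 98.3 and 106 CPM, and hbz had 9.88 and 14.7 CPM.

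Granulocyte and macrophage genes came next. The neutrophil list had 34 entries, of which 32 were detected and 29 reached 10 CPM, with a median of 94.1 CPM. It took 0.827% of the reads in replicate 1 and 0.531% in replicate 2. Its leading members were lyz, cebpb, s100a10b and npsn. cebpb, a transcription factor of late granulocytes and macrophages, had 623 and 1045 CPM. s100a10b, which encodes a calcium-binding-type protein found well beyond neutrophils, had 564 and 484 CPM. npsn, a secreted protease of fish neutrophils, had 525 and 304 CPM.

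The myeloperoxidase gene mpx, a defining granule marker, had 1648 and 392 reads, or 161 and 49.3 CPM. The gap between the libraries was among the widest of all genes with at least 10 CPM. The NADPH oxidase that makes superoxide in phagocytes was represented by several of its subunits. cybb, its membrane core, had 255 and 235 CPM, ncf1 had 145 and 170 CPM, and cyba had 98.0 and 77.9 CPM. The regulator cebpa, needed to enter the granulocyte lineage, had 313 and 243 CPM. cpa5, a protease of fish mast cells that also sits in the eosinophil and mast list, had 235 and 259 CPM, while the other mast list members reached at most 17.8 CPM in either library.

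Of 54 macrophage entries, 45 were detected and 35 reached 10 CPM. The leading members were grn1, a granulin growth factor precursor, with 985 and 552 CPM, cd74a and cd74b, the invariant chains that accompany MHC class II, and coro1a, a leukocyte actin regulator, with 532 and 449 CPM. cd74a had 717 and 762 CPM and cd74b had 670 and 685 CPM. spi1, the factor PU.1 that sets the myeloid fate, had 314 and 313 CPM. irf8, needed for macrophages in fish, had 84.8 and 60.3 CPM. The pore-forming marker mpeg1 had 206 and 147 reads, or 20.2 and 18.5 CPM.

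The macrophage marker mfap4 exists as many entries. The one named mfap4 had 14.0 and 12.4 CPM, and the entry MFAP4 (13 of 13) had 75.2 and 63.5 CPM. Entries MFAP4 (2 of 13), c1qc and CMKLR1 (3 of 3) were listed at 0 reads. The other 2 chains of the complement protein C1q were not low, with 115 and 85.7 CPM for c1qa and 175 and 138 CPM for c1qb.

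B lineage genes were present at lower levels. Of 38 entries 32 were detected, with a median of 16.8 CPM, and the list took 0.194% and 0.151% of the reads. Its leading members were xbp1, ighm, ccr9a and cd81. xbp1, needed by antibody-secreting cells but also by any cell under secretory stress, had 522 and 613 CPM. The immunoglobulin M heavy chain ighm had 189 and 198 CPM, the chemokine receptor ccr9a had 150 and 199 CPM and the tetraspanin cd81 had 182 and 102 CPM.

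The markers that define early B cells were also read. pax5, the factor of B cell identity, had 20.1 and 15.6 CPM, and cd79a, a signalling chain of the B cell receptor, had 18.0 and 16.3 CPM. The recombinase genes rag2 and rag1, which cut antigen receptor genes in lymphocyte precursors, had 25.9 and 24.6 CPM and 8.90 and 10.1 CPM. The entry ebf1b was listed at 0, while ebf1a had 58 and 43 reads.

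T and NK cell genes were few and low. Of 37 entries 19 were detected, 5 reached 10 CPM and 0 reached 100 CPM, and the list took 0.0188% and 0.0174% of the reads. The defining markers were at 8 and 11 reads for lck, 11 and 10 for cd4, and 8 and 6 for cd8a. The most abundant entry, CD3EAP, is named polr1g in the reference and encodes a subunit of RNA polymerase I, so it does not mark T cells. skap1, a T cell adapter, followed with 25.8 and 34.2 CPM. Next came the chemokine entry si:ch211-149o7.4, with 23.7 and 22.1 CPM, and sla2, an adapter that dampens receptor signalling, with 10.2 and 29.4 CPM. CD2 was listed at 0.

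The thrombocyte list had 24 entries, 19 of them detected, with a median of 22.5 CPM. f13a1b, a coagulation factor subunit, had 258 and 194 CPM, selp, the adhesion receptor P-selectin, had 127 and 120 CPM, and plek had 81.9 and 76.0 CPM. The thrombocyte receptor genes GP9 and gp1bb had 54.4 and 36.4 CPM and 42.0 and 22.6 CPM. The defining integrin itga2b, in contrast, had only 59 and 43 reads, or 5.77 and 5.40 CPM.

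The lists for non-blood cells of the kidney were read at low levels. They do not hold the epithelial keratins krt8, at 1455 and 1527 CPM, and KRT18 (2 of 3), at 1042 and 1072 CPM, which were abundant. Of 29 kidney tubule entries 6 were detected, and 6 were listed at 0, among them the endocytic receptors cubn and lrp2a. The summed level of the list was 413 and 301 CPM, nearly all of it from slc20a1a, a phosphate transporter that is not particular to kidney. Without it the other 28 entries summed to 23.1 and 15.1 CPM. cdh17, a cadherin of the tubule, had 43 and 28 reads, atp1a1a.4 had 82 and 38, and slc12a3 had 28 and 12.

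The endothelium and stroma list summed to 269 and 127 CPM, of which fn1, the matrix protein fibronectin, held 186 and 65.9. Without fn1 the sums were 83.1 and 60.7 CPM. The angiopoietin receptor tie2 had 17.9 and 21.6 CPM and tie1 had 13.1 and 10.1 CPM, while the endothelial cadherin cdh5 had 1 read in each library. The niche chemokine cxcl12a had 13.8 and 8.80 CPM. Of 20 skeletal muscle entries, 4 were detected and 10 were listed at 0. acta1b, with 66.0 CPM in each library, was the only muscle entry above 10 CPM, and mylpfb, mylz3 and tnni2a.4 lay between 4.15 and 6.66 CPM. The myosin heavy chain myhz2, the creatine kinase ckma and all listed parvalbumins had 0 reads.

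**Figure D2:**
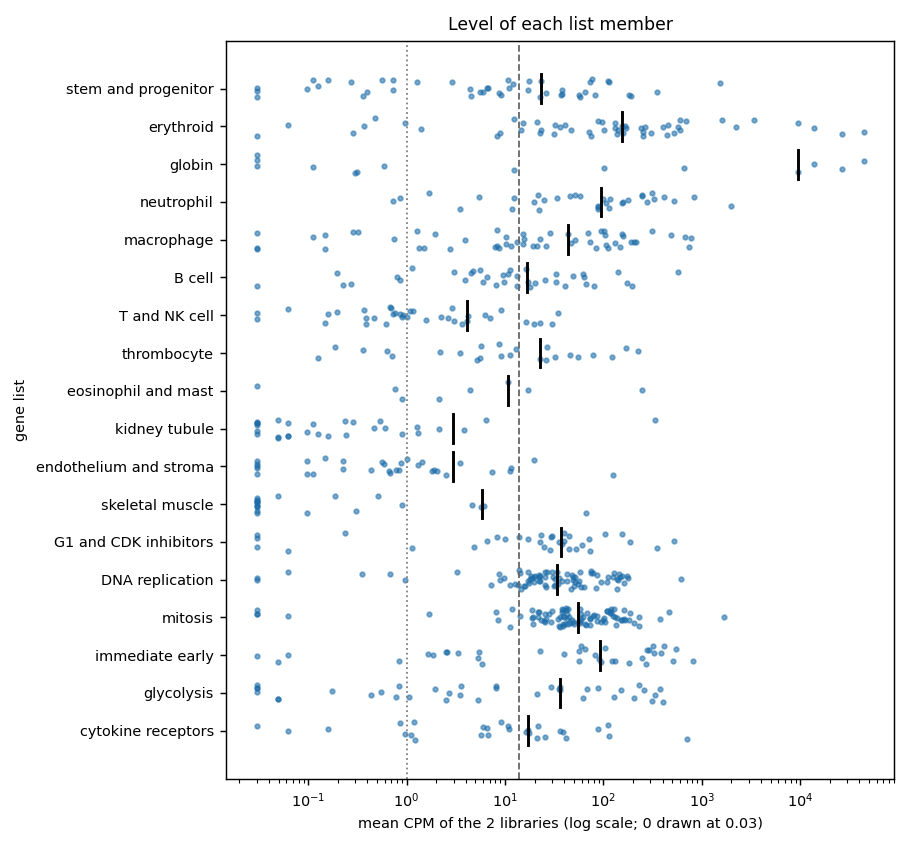
Mean CPM of the 2 libraries (x axis, log scale) of every entry in 18 gene lists (y axis). Points at the left edge are entries with 0 reads, thick lines are medians of the detected entries, the dotted line marks 1 CPM and the dashed line the median of all detected genes, 13.7 CPM. The lists of mitosis and DNA replication lie almost wholly to the right of 1 CPM, with 89 of 93 and 75 of 81 entries detected, whereas 6 of 29 kidney tubule entries do.

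Nearly the whole cell division programme was read. Of 81 entries for DNA replication 75 were detected and 70 reached 10 CPM, and of 93 for mitosis 89 were detected and 86 reached 10 CPM. The medians of the detected members were 33.5 CPM and 55.8 CPM. These lists summed to 4248 and 4814 CPM for replication and to 8324 and 8917 CPM for mitosis.

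In replication, the sliding clamp pcna led with 553 and 664 CPM. The single-strand binding protein rpa1 had 173 and 182 CPM, the helicase subunit mcm4 had 170 and 179 CPM, and the ribonucleotide reductase subunit rrm1 had 154 and 167 CPM. The other helicase subunits mcm2, mcm5, mcm6 and mcm7 lay between 118 and 162 CPM in both libraries. The sixth subunit, mcm3, stood apart at 20.2 and 16.8 CPM, with a second entry at 12.7 and 14.7 CPM. Whether reads of this gene were split over its entries cannot be told from the counts.

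In mitosis, hmgb2a and hmgb2b led with 1552 and 445 CPM in replicate 1 and 1815 and 491 CPM in replicate 2. MKI67, the proliferation antigen that coats mitotic chromosomes, had 396 and 352 CPM. The nuclear lamina gene lmnb2 had 210 and 255 CPM. The mitotic kinase cdk1 had 129 and 131 CPM, its partner ccnb1 had 109 and 108 CPM, and the kinase plk1 had 101 and 108 CPM. The spread over mitosis members between libraries was narrow, with log2 ratios from -0.42 to 0.72.

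Relative to all genes the median log2 ratio was 0.20 for replication and 0.09 for mitosis, against 0.19 and 0.07 with libraries scaled by their totals. In TMM-scaled CPM 59 of 75 replication genes and 60 of 89 mitosis genes were higher in replicate 2, against 21 and 17 under scaling by totals, which lowers every ratio alike.

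Of the 33 G1 and CDK inhibitor entries, 28 were detected. The leading members were ccng1, a p53 target, with 496 and 541 CPM, cdk6, the D cyclin ccnd1 with 174 and 197 CPM, and the E2F partner tfdp1a with 140 and 170 CPM. The inhibitor genes cdkn1a and cdkn1ba, which arrest the cycle, had 49.4 and 33.4 CPM in replicate 1 and 30.7 and 46.9 CPM in replicate 2, so their order differed between the libraries. cdkn1bb, cdkn1c and CCND3 (2 of 2) were listed at 0. Some genes that dividing cells need were also listed at 0 in both libraries, namely uhrf1, pold2 and wee1, besides birc5b and one of the entries named ncapg2, and spc24 had 0 and 1 reads. Whether reads of such genes went uncounted cannot be told from the counts.

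Most steps of glycolysis were read at over 100 CPM from at least one gene. ldhba, a lactate dehydrogenase, had 380 and 432 CPM, the aldolase aldoaa had 371 and 383 CPM, the enolases eno3 and eno1a had 302 and 204 CPM in replicate 1 and 373 and 254 CPM in replicate 2, and gapdhs had 302 and 316 CPM. Of 37 entries 26 were detected, and pfkmb, pkmb, PKLR and ldhbb were listed at 0. The detected members had a median log2 ratio 0.07 above that of all genes.

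Receptors for cytokines and chemokines, blood growth factors among them, had a median of 17.1 CPM over 23 detected of 28 entries. The median of all detected genes was 13.7 CPM. Of the 28 entries, 3 reached a mean of 100 CPM. The highest was cxcr4b, the receptor by which progenitors are held in the marrow by Cxcl12, with 726 and 697 CPM. csf3r, the receptor for granulocyte colony-stimulating factor, had 174 and 56.7 CPM. csf1rb, a receptor of the macrophage growth factor, had 164 and 61.0 CPM. cxcr4a had 54.4 and 121 CPM. csf3r and csf1rb were thus higher in replicate 1 and cxcr4a in replicate 2, while cxcr4b was near equal, and crfb12 was listed at 0.

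The use of paralogs was compared in 71 families with reads in both libraries, as the share of a family's reads taken by each member. One member held at least 80% of the reads in both libraries in 37 families, called dominant here, and 34 families had no such member. In 15 families only 1 member was detected, and each of these counts as dominant. Some families set related genes side by side and not copies of the same gene, such as gata1a with gata3 or ASXL1 with ASXL2. The leading member was the same in both libraries in 69 of 71 families. These are shares of reads without regard to transcript length, and near-identical copies may exchange reads.

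Dominance was near complete in several families of metabolism and of the red cell membrane, though not in all. ldhba and pkma, a pyruvate kinase, took 100% of their family's reads in both libraries. aldoaa took 99.0% and 99.6%, tpi1b took 99.2% in each, and eno1a took 95.9% and 97.2% over eno1b. The mutase pgam1a, in contrast, took 67.0% and 75.0% over pgam1b. gapdhs took 98.7% and 99.1% over gapdh, although its mammalian counterpart is known from sperm. In red cells slc4a1b had 0 and 1 reads beside slc4a1a, epb41b took 99.7% and 99.9%, and alas2 took 96.8% and 95.8% over the housekeeping form alas1.

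Among regulators, cmyb took 94.7% and 94.4% of the Myb family reads, with mybl2, mybl1 and the entry named myb, which the reference places with Mybl2, at 4% or less each. The receptor kita took 98.9% and 99.2% over kitb. meis1 took 98.6% and 98.2%, and ikzf1 took 81.9% and 80.6%. csf1rb took 84.4% and 83.0% over csf1ra. cxcr4b took 93.0% in replicate 1 and 85.2% in replicate 2, where cxcr4a was higher. Of the cyclins, ccnd1 held 80.4% and 89.1%, just inside the limit in replicate 1, and ccne2 held 80.2% and 82.8%.

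Other families were shared. The PU.1 pair was split at 62.0% and 62.5% for spi1 and 38% and 37.5% for spi1l. cd74a held 51.7% and 52.7% beside cd74b, and hmbsb held 60.3% and 60.1% beside hmbsa. hmgb2a was just outside the limit, with 77.7% and 78.7%. In these 4 families the share moved by no more than 0.983 percentage points between the libraries.

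Of the Tet enzymes, which oxidize methylated cytosine, tet2 took 52.7% and 58.0% of the reads, tet3 took 39.2% and 35.1%, and tet1 took 8.10% and 6.90%. These were 332 and 185 reads for tet2, 247 and 112 for tet3, and 51 and 22 for tet1. None of them reached 33 CPM in either library. The de novo DNA methyltransferases were led by dnmt3b, with 56.6% and 60.5%. Of the Myc genes, mych took 53.2% and 50.4%, myca 28.6% and 24.6%, and mycb 9.81% and 17.9%. The Runx family was led by runx3, with 75.9% and 75.3%, and not by runx1.

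The leader changed between the libraries in only 2 families. cks1b and cks2, small partners of mitotic kinases, held 55% and 45% in replicate 1 and 46.7% and 53.3% in replicate 2. cdkn1a held 59.7% and 39.5%, and cdkn1ba held 40.3% and 60.5%. In the RRM2 family the entry RRM2 (1 of 2) held 83.7% in replicate 1 and 64.8% in replicate 2, where the entry rrm2 was also read, at 141 reads against 2. In the Cebp family cebpb held 63.0% and 78.5%, and cebpa held 31.6% and 18.2%.

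**Figure D3:**
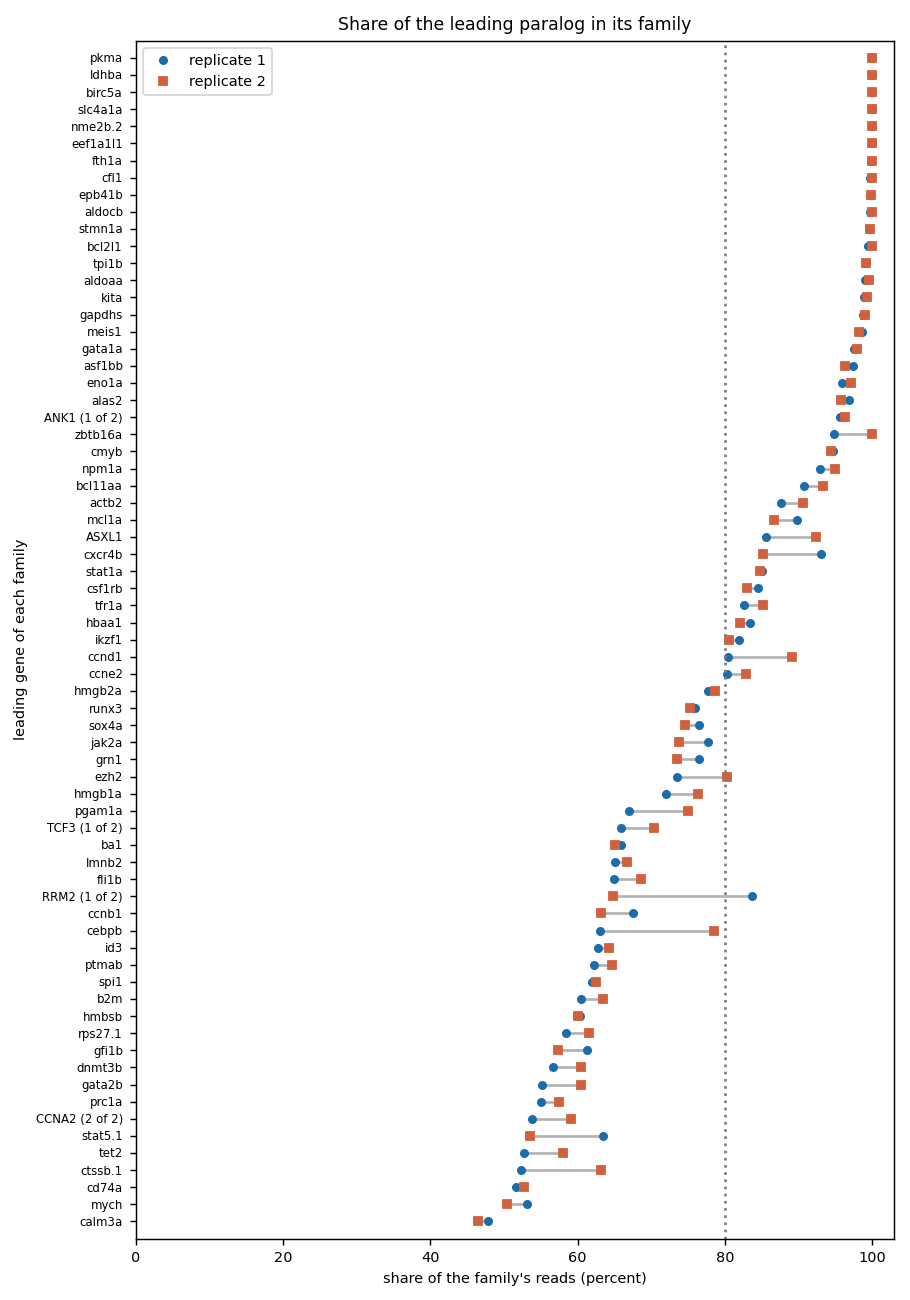
Share of a family's reads (x axis, percent) taken by its leading member (y axis) in replicate 1 (circles) and replicate 2 (squares), for the 69 families with the same leader in both libraries. The dotted line marks 80%, and 37 families lie at or beyond it in both libraries, from ccne2 (80.2% and 82.8%) to pkma (100% in each).

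The libraries were then compared with each other gene by gene. Over the 12868 detected genes, log2 CPM with a pseudocount of 0.5 correlated with a Pearson's r of 0.973 and a Spearman's rho of 0.972, values across genes, which are not independent replicates. The coefficient of variation between the libraries, from edgeR's common dispersion, was 19.5%. The chi-square per degree of freedom over 14287 genes was 22.2, so the libraries differed by more than counting error and neither was a copy of the other.

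Over 2-fold apart were 690 genes, or 5.36% of those detected. Of these, 206 (1.6%) were higher in replicate 2 and 484 (3.76%) were higher in replicate 1. With 1 library on each side these are differences between 2 libraries, with no replicate check and no test. Scaling by totals gave 114 and 1054 genes in place of 206 and 484. Most of the wide gaps lay at low levels, with 10.8% of the genes from 1 to 10 CPM over 2-fold apart, 1.49% from 10 to 100 CPM and 0.730% from 100 to 1000 CPM. None of the 142 genes above 1000 CPM was, although their median absolute log2 ratio of 0.55 exceeded the 0.27 of all genes.

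**Figure D4:**
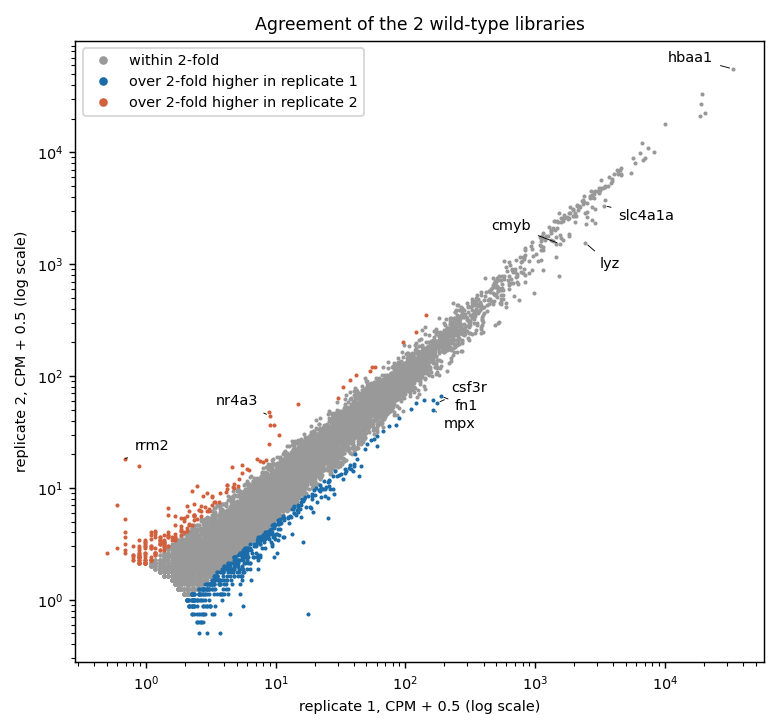
CPM plus 0.5 of each of 12868 detected genes in replicate 1 (x axis, log scale) and replicate 2 (y axis, log scale). Blue points mark the 484 genes over 2-fold higher in replicate 1 and orange points the 206 over 2-fold higher in replicate 2, and cmyb (1559 and 1516 CPM) and slc4a1a (3372 and 3346 CPM) lie on the diagonal while mpx, csf3r and fn1 lie below it.

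Among genes with a mean of at least 10 CPM, those with the widest gap toward replicate 1 included hprt1l, SPINK2 (2 of 4), mpx, marcksa, CR385063.1, MYO1G and csf3r. hprt1l, a purine salvage paralog, had 255 and 39 reads. mpx had a log2 ratio of -1.70, with a counting interval of -1.87 to -1.55, and csf3r one of -1.61, with -1.77 to -1.47. Both are genes of the granulocyte lineage, and both intervals, which cover counting error only, lie far from an equal level.

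The 8 with the widest gap toward replicate 2 were si:ch73-341p18.7, nr4a3, si:dkeyp-52c3.2, dnajb1b, jun, TNFRSF1A (2 of 2), sla2 and arg2. nr4a3, an early-induced nuclear receptor, had 87 and 347 reads, with a log2 ratio of 2.29 and an interval of 2.01 to 2.71. dnajb1b, a heat-induced cochaperone, had 146 and 439 reads. jun, a component of the AP-1 transcription factor, had 94 and 285 reads.

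By list, immediate early genes, which cells switch on within minutes of a stimulus or of handling, had the highest median log2 ratio after the globins, 0.50 above that of all genes. Of 32 detected, 8 were over 2-fold higher in replicate 2 and 1 in replicate 1, or 28.1% against 5.36% of all detected genes. In the direction of replicate 2 the share over all detected genes was 1.6%. At a mean of at least 10 CPM 3 of 24 immediate early genes were over 2-fold apart, against 101 of 7421 genes in all. The others lay from 1 to 10 CPM, where 10.8% of all genes were over 2-fold apart. Those higher in replicate 2 were dusp2, IER2, jun, egr2b, the entry CU638738.1 and the 3 heat shock genes hsp70.1, hsp70.2 and hsp70.3. The Hsp70 copies are near-identical and summed to 5 and 115 reads, a log2 ratio, here without a pseudocount, of 4.88 with a counting interval of 3.62 to 6.53.

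The most abundant immediate early genes moved less. nr4a1 had 644 and 989 CPM, btg1 had 519 and 581 CPM, dusp1 had 442 and 577 CPM, mcl1a had 349 and 471 CPM, and fos had 339 and 432 CPM. egr1, with 393 and 248 CPM, and socs3a, with 343 and 240 CPM, lay the other way. In all, 27 of 32 were higher in replicate 2, and 21 of 32 under scaling by totals.

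Neutrophil genes lay toward replicate 1, with a median log2 ratio of -0.33 relative to all genes and 25 of 32 higher there. Over 2-fold higher in replicate 1 were mpx, csf3r, ITGAM, an integrin of phagocytes, and cebp1, and pnp5a was over 2-fold higher in replicate 2. The 5 made up 15.6% of the detected members, against 5.36% of all detected genes. Cytokine receptors had a median of -0.49 relative to all genes, with 7 of 23 over 2-fold higher in replicate 1, against 3.76% of all detected genes. Some receptors are neutrophil or macrophage genes as well (csf3r, csf1ra and csf1rb), so these lists overlap.

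With detection at 1 CPM, the other lineage lists moved less or rested on few reads. Erythroid genes had a median of 0.23 relative to all genes, with 33 of 47 higher in replicate 2. Under scaling by totals 18 of 47 were. Without the globins, 28 of 42 were higher in replicate 2 in TMM-scaled CPM. Macrophage genes had a median of -0.11 relative to all genes. Of these, 5 of 45 were over 2-fold higher in replicate 1, among them csf1ra, csf1rb and grn2, against 3.76% of all detected genes. B cell genes had -0.25, thrombocyte genes -0.28, and stem and progenitor genes -0.13, where csf3r alone of 33 was over 2-fold apart. At a mean of at least 10 CPM the relative median was -0.39 for B cell genes and -0.37 for neutrophil genes. Endothelium and stroma had -0.66, with 5 of 12 over 2-fold higher in replicate 1, against the same 3.76%. The 5 were fn1, col1a1a, kdrl, col1a2 and sparc, and apart from fn1 they had 28 to 61 reads in replicate 1 and 4 to 8 in replicate 2. Of all genes from 1 to 10 CPM, 10.8% were over 2-fold apart. At a mean of at least 10 CPM, 3 macrophage genes and 1 gene of endothelium and stroma were. Kidney tubule genes had -0.56 over 6 detected entries, all of them higher in replicate 1.

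Relative to all genes, replicate 1 thus held more reads of neutrophil, cytokine receptor and stromal genes. B cell and thrombocyte genes lay the same way, with 23 of 32 and 15 of 19 detected members higher in replicate 1. Replicate 2 held more of globin, ribosomal protein and immediate early genes, and erythroid genes lay the same way by a smaller median. For stromal genes the difference rested on fn1 and on entries with few reads. The part of any one of these differences in the others was not tested. With 1 library on each side the libraries cannot be told apart from the cells, fish or handling behind them.

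**Figure D5:**
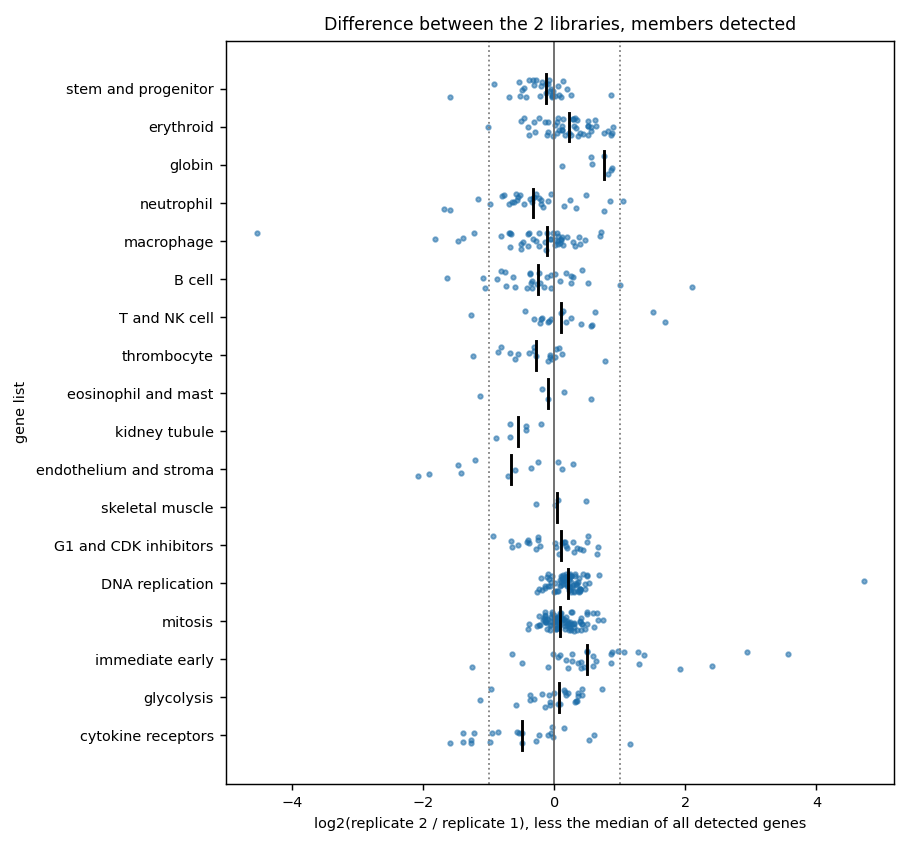
Log2 ratio of replicate 2 over replicate 1, less the median of all detected genes (x axis), for the detected entries of 18 gene lists (y axis). Thick lines are list medians and dotted lines mark 2-fold, and the medians run from -0.66 for endothelium and stroma and -0.49 for cytokine receptors to 0.50 for immediate early genes and 0.75 for globins, while mitosis genes lie close to 0.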

How the data were processed

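The authors sorted progenitors from the kidney marrow by light scatter, made poly(A)-selected TruSeq libraries and sequenced them as single-end reads. Per the labels and the methods of the study, reads were checked with FastQC 0.10.1, aligned to Zv9 with STAR 2.3.0 and counted per Ensembl gene with bedtools 2.16.1. The deposited values are raw counts. No source used here says how multi-mapping reads and strand were handled. The mutant libraries entered only 1 alternative scaling, and 0 columns lacked a sample.

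Counts of the 2 wild-type libraries were scaled by TMM (trimmed mean of M-values) in edgeR 4.0.16 (R 4.3.3), with factors of 1.11 and 0.900, and given as CPM. Genes with a mean of at least 1 CPM were called detected, and log2 ratios used a pseudocount of 0.5 CPM except where stated. Intervals are exact (Clopper-Pearson) at 95% and, with the floor of 3 counts for a count of 0, cover counting error only. There is 1 group, so no test was made. The functions were tested on simulated data. Alternatives were DESeq2 1.42.0 size factors, TMM over all 4 libraries, library totals, other filters, pseudocounts and folds, and each library alone.

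Symbols are those of the table, and 20769 identifiers matched a reference list of names. The 18 gene lists and 74 paralog families, like the choice of these libraries, were made with earlier results of these data known, and name matching and transcript classes were set after the table was seen. Most classes were formed by symbol, so some genes of other function fall in them. Named genes are the 25 with the highest mean CPM, the 4 leading members of each list and its members at 0, paralogs with at least 10 CPM, the 8 widest library ratios in each direction, and defining markers. Others were chosen after their values were seen. A few genes that this rule names are not reported here. Levels per kilobase were planned for paralogs and ranks but could not be computed, since no transcript lengths of the build were at hand. Shares of reads were used instead.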

Additional observations from a re-analysis of the deposited data

How the results depend on the processing

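No paired analysis was possible because there is 1 group and no test. Of 299 comparisons of a value with its alternative, 26 moved by more than a set tolerance and 273 did not. Some of the 273 could not move, so this count does not measure robustness. Leaving out 1 library always shifts a summed CPM by less than the tolerance for sums. Rescaling shifts all ratios nearly alike, so it hardly changes a median taken relative to all genes. The tolerance was 1.5-fold for counts and the coefficient of variation, 0.01 for r, 0.1 for a median log2 ratio and 1 SD between the libraries for summed CPM, which is wide for globins (a mean of 95042 CPM, and 69908 or 120177 in a single library) and for endothelium and stroma (198, and 127 or 269). The count of 690 genes over 2-fold apart became 1168 with library totals, 1115 with no filter, 101 at a mean of at least 10 CPM, 457 with a pseudocount of 1 CPM and 2453 at 1.5-fold. Pearson's r moved by no more than 0.01 under all of them, and the coefficient of variation was 26% with library totals, 19.9% with no filter and 16.9% at 10 CPM. TMM over all 4 libraries raised the summed CPM of every lineage and cell cycle list. Those past the tolerance were B cell genes at 1799, eosinophil and mast genes at 297 and muscle genes at 88.6. G1 genes at 2133 and mitosis genes at 9041 were also past it. Lists that differed more between the libraries rose too but stayed within it, such as neutrophil genes, from 6676 to 6995. With detection as any read in both libraries, 32 T and NK cell entries counted, 14 kidney tubule, 23 endothelium and stroma and 7 muscle entries. Chosen after seeing the data, lists without their leading members had mean sums of 14693 CPM (erythroid without globins), 19.1 (kidney tubule without slc20a1a), 71.9 (endothelium and stroma without fn1) and 147 (T and NK cells without CD3EAP). At 1.5-fold 14 neutrophil, 12 macrophage and 15 immediate early genes were apart. At a mean of at least 10 CPM 3 macrophage, 3 immediate early and 1 endothelium and stroma genes were over 2-fold apart, and the relative median was -0.39 for B cell and 0.37 for T and NK cell genes. Fewer genes enter these counts.

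With either library left out, 24 to 25 of the 25 leading genes stayed among the 25 highest and 38 families had a dominant member, against 37 with both, and a limit of 90% left 26. Levels per kilobase were not run, since no transcript lengths were at hand. Genes from 1 to 10 CPM were the least precise at this depth.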

Other observations

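The 3 genes of the mitochondrial ADP/ATP carrier, slc25a4, slc25a5 and slc25a6, had 1 read each in replicate 1 and 0 in replicate 2. The carrier exchanges ATP for ADP across the inner mitochondrial membrane. Whether these genes were little expressed or their reads went uncounted cannot be told from the counts and was not tested. These entries were picked after their values were seen.

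Only 2 genes had at most 3 reads in one library and at least 10 CPM in the other. The entry rrm2, a subunit of ribonucleotide reductase, had 2 reads in replicate 1 and 141 in replicate 2, a log2 ratio without a pseudocount of 6.5 with a counting interval of 4.62 to 9.56. The entry MFAP4 (3 of 13), from a family of macrophage genes, had 176 and 2 reads, a log2 ratio without a pseudocount of -6.10 with an interval of -9.16 to -4.22. Both have a second entry of the same name with reads in both libraries, RRM2 (1 of 2) with 630 and 454 and MFAP4 (13 of 13) with 769 and 505.

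The mannose receptor mrc1b had 1530 and 784 CPM, and the glucocorticoid-induced gene fkbp5 had 829 and 690 CPM. txnipa, which restrains glucose uptake in mammals, had 1439 and 1151 CPM. These genes were picked from the most abundant genes outside the classes above.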
